A study of Mus musculus with 8 samples.

Results

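Type I interferon response genes are the antiviral transcripts that cells switch on when they sense nucleic acid of a virus or receive an interferon signal. The genes described here came from a list of 35 antiviral interferon-stimulated genes, drawn up without the guanylate binding protein (GBP) and immunity-related (IRG) GTPases, and a probe set was used where the array annotation gives it to exactly 1 of them. Of the 35, 32 genes had such a probe set, out of 18194 genes named on the array. These 32 genes have 47 probe sets, of which 41 passed the filter on low intensity, and all 32 genes kept at least 1. They were among 11988 genes tested. Isg15, Oas1g and Ifi44 had no probe set of their own here, since Isg15 shares its probe set annotation with Gm9706, and they were not analysed here. One listed gene, Ifi47, is itself an IRG GTPase, and Cxcl9 is best known as a target of interferon gamma.

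RNA of Peyer's patches, clusters of lymphoid follicles in the small intestinal wall, was read from 8 C3H/Hej mice of both sexes on 1 single-colour Affymetrix array each. The strain lacks a working Tlr4, which senses bacterial lipopolysaccharide, so all groups share that defect. Treated mice received ovalbumin (OVA), an allergen from egg white, by gavage at 40 mg/kg each day for 28 days from 6 weeks of age, and controls received normal saline in the same way. The groups were 1 female control (labelled 7), 1 male control (8), 2 female OVA mice (2 and 12) and 4 male OVA mice (1, 5, 8 and 13). No virus or interferon was given to any group. Whether tissue was pooled is not given in the sources used here, so the tests measure the spread between these 8 samples, and 1 control per sex limits every comparison with OVA.

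Type I interferons signal through a receptor that activates the kinases Jak1 and Tyk2, after which the signal transducers assemble with Irf9 into the complex ISGF3. This complex binds interferon-stimulated response elements, short motifs in the promoters of target genes, and one of its targets, Irf7, raises interferon production further. In gut lymphoid tissue a low tonic level of this response is maintained by commensal microbes. The proteins act in steps, from sensors of viral RNA and DNA through transcription factors and their brakes to effectors that degrade RNA, block translation or hold virus at the membrane.

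The promoters of 7 genes show the element that links these genes, and they were chosen because the genes differ in how they behaved across the arrays. Sequences are from RefSeq on build GRCm38.p6, in the direction of the gene, and give the 160 bases that end at the base before the transcription start. Capitals mark the motif GAAANNGAAA or its reverse complement TTTCNNTTTC, the core of a response element, and adjoining capitals hold overlapping matches. The first 4 genes are those of 9 genes with 1 order among the OVA mice, given further on, that hold the motif. Of the other five, Cmpk2 and Oasl1 had promoter entries with 0 matches, and Oas2, Rtp4 and Usp18 had no entry. The first 4 come from chromosome 19 (chr19:34640729-34640888 for Ifit1 and chr19:34583369-34583528 for Ifit3, both on the plus strand), chromosome 5 (chr5:120907526-120907685, minus strand) and chromosome 12 (chr12:26456453-26456612, minus strand).
Ifit1: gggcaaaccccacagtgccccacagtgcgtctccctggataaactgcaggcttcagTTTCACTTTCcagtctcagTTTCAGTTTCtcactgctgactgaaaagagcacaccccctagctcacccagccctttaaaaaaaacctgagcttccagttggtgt
Ifit3: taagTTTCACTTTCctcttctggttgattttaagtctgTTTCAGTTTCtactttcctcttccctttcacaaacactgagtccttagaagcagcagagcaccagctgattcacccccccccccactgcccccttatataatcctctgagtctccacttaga
Oas1a: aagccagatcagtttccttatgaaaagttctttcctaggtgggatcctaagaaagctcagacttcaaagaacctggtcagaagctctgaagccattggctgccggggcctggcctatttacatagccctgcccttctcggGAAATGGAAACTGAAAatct
Rsad2: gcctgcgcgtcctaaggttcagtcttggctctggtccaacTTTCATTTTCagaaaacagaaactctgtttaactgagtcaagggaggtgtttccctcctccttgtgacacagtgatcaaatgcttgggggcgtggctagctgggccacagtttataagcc
The next is the sensor Ddx60 on chromosome 8 (chr8:61927927-61928086, plus strand), which was lower in OVA mice. The last pair are Bst2 on chromosome 8 (chr8:71537473-71537632, minus strand) and Trim30a on chromosome 7 (chr7:104465194-104465353, minus strand), which were on the higher side.
Ddx60: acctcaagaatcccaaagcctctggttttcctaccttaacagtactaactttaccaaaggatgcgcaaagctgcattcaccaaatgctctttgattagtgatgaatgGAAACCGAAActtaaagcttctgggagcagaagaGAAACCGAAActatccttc
Bst2: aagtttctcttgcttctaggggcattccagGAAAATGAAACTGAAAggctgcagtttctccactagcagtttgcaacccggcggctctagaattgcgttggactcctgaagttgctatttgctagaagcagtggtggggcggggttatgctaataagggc
Trim30a: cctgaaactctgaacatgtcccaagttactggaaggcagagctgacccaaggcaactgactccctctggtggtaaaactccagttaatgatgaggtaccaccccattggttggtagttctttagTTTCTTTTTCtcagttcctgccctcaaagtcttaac
Ifit1 holds matches whose first bases lie 104 and 85 bases before the start, and Ifit3 holds them at 156 and 122. In Oas1a the matches begin 20 and 14 bases before the start and overlap. Rsad2 has 1 match at 120 bases, Ddx60 has matches at 53 and 19, Bst2 has overlapping ones at 130 and 124, and Trim30a has 1 at 36. Searched on both strands over windows of 300 bases (250 before and 50 after the start), the motif was found in 14 of the 26 listed genes with a promoter entry (53.8%), against 3.99% of 27025 genes in the same table. Genes with the motif lay on both sides of the comparison with control, so these letters alone did not separate lower from higher genes. A match describes the sequence only, and 9 listed genes had no entry.

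Set against saline, OVA mice had lower mean levels of most antiviral genes, but no single gene passed the test after adjustment. Of the 32 genes, 28 were lower and 4 were higher in OVA mice, where 46.3% of all tested genes were lower and 53.7% higher. The median log2 difference was -0.20 for these genes and 0.02 for all tested genes. Without female OVA 12 the median was -0.10, with 22 of the 32 genes lower. With arrays weighted by their quality it was -0.12 with 23 lower. With a B cell score as covariate it was -0.08 with 17 lower. That score was higher in every OVA array than in both controls, so its part and that of treatment cannot be fully told apart. Slfn4 passed the intensity filter only through its controls and so had to be lower; without it 27 of 31 genes were lower, with a median of -0.18. Apart from Slfn4, genes furthest from control relative to their spread were the sensor Zbp1, the ADP-ribosyltransferase family member Parp9 and the transcription factor Irf7. They were at 0.664 to 0.749 of the control level on the offset log2 scale. Isg20, Trim30a, Irf9 and Bst2 were the genes on the higher side. Without Ifi47 and Cxcl9, which are less typical of the type I response, 26 of 30 genes were lower with a median of -0.18.

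None of the 32 genes passed limma's moderated test with Benjamini-Hochberg adjustment over 22518 probe sets (adjusted p from 0.352 to 0.963), and neither did any other gene on the array, which is 0 of 11988 genes (0%). At an unadjusted p under 0.05, 6 of the 32 were lower against 3.82% of all tested genes, namely Slfn4, Zbp1, Parp9, Irf7, Oas2 and Oas1a, and 0 were higher against 6.39%. In 6 genes, Zbp1, Irf7, Mx1, Oas2, Parp9 and Slfn4, all 6 OVA arrays lay below both controls, which held for 4.65% of all genes. Leaving out Slfn4, both counts were 5 of 31. In 1 gene, Irf9, all 6 lay above both, against 7.99% of all genes. These counts rest on the brightest probe set of each gene. Among dimmer ones past the filter, those of Zbp1 and Parp14 had all OVA arrays below both controls. A dimmer one of Eif2ak2, given further on, had all of them above at 0.46 ± 0.10 (SE). Differences are on the scale log2(intensity + 4.88), which understates changes of dim genes.

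**Figure D1:**
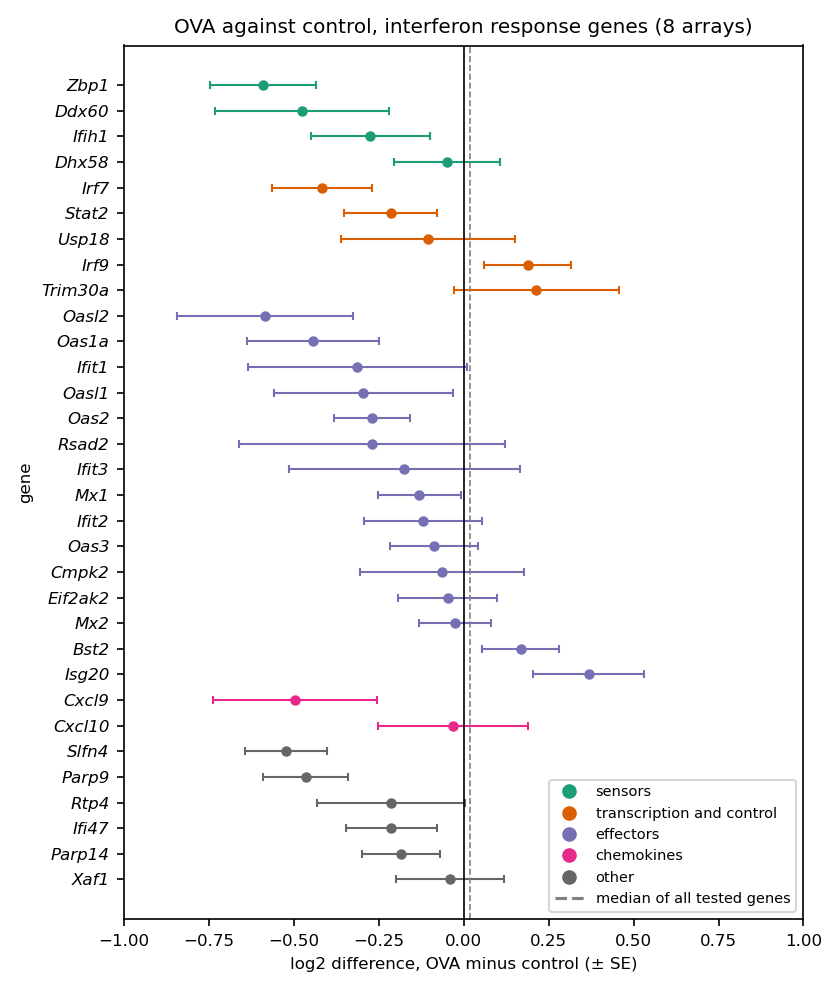
Log2 difference between OVA and control for the 32 interferon response genes (x axis, points with SE bars, sex as covariate, 8 arrays), with genes on the y axis in groups by role. The dashed line is the median of all tested genes (0.02), and 28 of 32 points lie below 0.

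All 4 sensors of foreign nucleic acid among the 32 genes were on the lower side, with a median difference of -0.38. Of all tested genes 46.3% were lower. A separate list of 14 nucleic acid sensing genes, given further on, had 8 lower and 6 higher. Female control 7 was the highest of the 8 arrays for all 4 sensors. In males alone Ddx60 was at -0.03, Ifih1 at -0.08 and Dhx58 at -0.005, and Zbp1 was at -0.63. Zbp1, which binds left-handed nucleic acid and starts inflammatory cell death, had an intensity of 175 in the female control and 153 in the male control. In OVA mice Zbp1 ran from 82.5 through a median of 102 to 128. No OVA array reached either control. The log2 difference was -0.59 ± 0.16 (SE; limma adjusted p = 0.372), and a second Zbp1 probe set gave -0.58 ± 0.12 with all OVA arrays again below both controls.

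Ddx60, a helicase that assists RNA sensing, read 113 in the female control and 78.4 in the male control, against a lowest of 44.5, a median of 72.3 and a highest of 94.0 in OVA mice. The groups overlapped, since 3 male OVA arrays were above the male control. Its difference was -0.48 ± 0.26 (SE; limma adjusted p = 0.504). Ifih1 encodes MDA5, the sensor of long double-stranded RNA. Its controls read 386 and 312, and its OVA arrays ran from 238 through 295 to 349, with male OVA 5 and 13 above the male control. The difference was -0.28 ± 0.18 (SE; limma adjusted p = 0.551). Dhx58, which encodes the regulator LGP2, was the sensor nearest to no difference, at -0.05 ± 0.16 (SE), with controls at 48.8 and 38.4 and OVA arrays between 31.6 and 46.9.

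Among the genes of transcription and control, Irf7 was lower and Irf9 was not. Irf7, the factor that amplifies interferon production, read 238 in the female control and 187 in the male control. Its OVA arrays ran from 131 through a median of 164 to 174, so every OVA mouse was below both controls, and 4 of the 6 lay within 162 to 174. The difference was -0.42 ± 0.15 (SE; limma adjusted p = 0.412). Irf9, the DNA-binding part of ISGF3, had controls at 93.8 and 92.5 and OVA arrays from 99.9 through 103 to 135. All OVA mice were above both controls, by a small margin in all but male OVA 5. The difference was 0.19 ± 0.13 (SE; limma adjusted p = 0.570).

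Stat2, the transducer specific to the type I and type III receptors, had both controls at 37.4, and its OVA arrays ran from 26.1 to 40.0 with only male OVA 5 above them. Its brighter probe set gave -0.22 ± 0.14 (SE) and its dimmer one 0.22 ± 0.16 (SE), so the sign for Stat2 rests on the probe set. Usp18, the protease that removes Isg15 from proteins and dampens the receptor, read 104 and 71.3 in the controls and 52.7 to 114 in OVA mice, and its difference was -0.11 ± 0.26 (SE). Trim30a, a brake on signalling by Toll-like receptors, had controls at 77.0 and 52.3 and OVA arrays from 49.7 to 98.8. Both groups overlapped for Usp18 and Trim30a. The Trim30a difference was 0.21 ± 0.24 (SE), and its second probe set had the same sign.

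**Figure D2:**
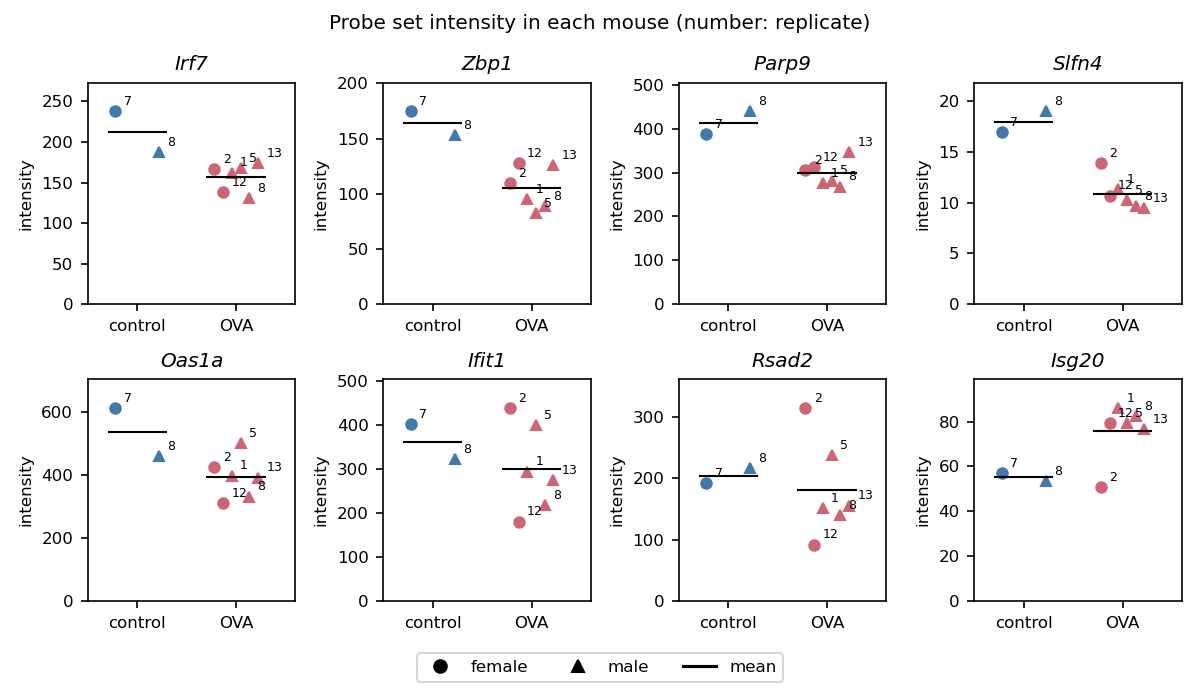
Linear probe set intensity (y axes, from 0) of 8 genes in each of the 2 control and 6 OVA mice; circles are females, triangles males, small numbers the replicate labels and lines the group means. Irf7, Zbp1, Parp9 and Slfn4 have every OVA mouse below both controls, whereas Ifit1 and Rsad2 have OVA mice above and below them.

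Of the 15 effectors, 13 were on the lower side, with a median of -0.13, and 2 of these had an unadjusted p under 0.05, against 46.3% and 3.82% of all tested genes. The oligoadenylate synthetases make the second messenger that switches on RNase L. Oas1a read 612 in the female control and 459.6 in the male control, and 310.3 through 395 to 501 in OVA mice. Only male OVA 5 was above a control. The difference was -0.44 ± 0.19 (SE; limma adjusted p = 0.445). Oas2 was dim, at 25.6 and 23.3 in the controls and 15.8 through 20.4 to 20.8 in OVA mice, all below both controls. Its difference was -0.27 ± 0.11 (SE; limma adjusted p = 0.428). Oas3 read 27.3 and 24.6 in the controls and 20.3 to 28.0 in OVA mice, a difference of -0.09 ± 0.13 (SE).

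Of the synthetase-like genes, Oasl2 had the largest difference of the effectors, -0.58 ± 0.26 (SE; limma adjusted p = 0.447). Its controls read 132 and 88.2 and its OVA arrays ran from 46.0 through 73.0 to 105. The female control was above every OVA mouse, whereas the male control was below male OVA 5. Oasl1, which restrains translation of Irf7, read 136 and 144 in the controls and 76.2 through 115 to 169 in OVA mice, a difference of -0.30 ± 0.26 (SE).

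The Ifit proteins bind viral RNA that lacks host cap marks, and Rsad2 (viperin) makes a chain-terminating nucleotide. Ifit1 read 403 and 323 in the controls and 181 through 285 to 439 in OVA mice. The OVA group therefore spanned both controls, with female OVA 2 above them and female OVA 12 far below. Ifit3 read 100.2 and 84.8 in the controls and 53.1 through 68.5 to 148 in OVA mice, and Ifit2 read 51.0 and 56.5 against 39.0 through 47.6 to 62.6. Rsad2 read 192 and 216 in the controls and 92.0 through 153 to 314 in OVA mice, again with OVA mice on both sides. The differences were -0.31 ± 0.32 for Ifit1, -0.17 ± 0.34 for Ifit3, -0.12 ± 0.17 for Ifit2 and -0.27 ± 0.39 (SE) for Rsad2. Each was at or below its standard error, and limma gave adjusted p from 0.704 to 0.851 for these 4 genes.

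The other effectors differed little or were on the higher side. Mx1, a dynamin-like GTPase that traps viral nucleocapsids and is disrupted in most inbred mouse strains, read 25.2 and 25.3 in the controls and 17.6 through 22.8 to 24.8 in OVA mice. Mx1 thus lay below both controls in every OVA mouse, at a difference of only -0.13 ± 0.12 (SE). Mx2 was near the filter, with a median of 13.8 in OVA mice and a difference of -0.02 ± 0.11 (SE). Cmpk2, a mitochondrial nucleotide kinase, gave -0.06 ± 0.24 (SE), and its dimmer probe set had the opposite sign. Eif2ak2 (PKR), the kinase that halts translation on double-stranded RNA, gave -0.05 ± 0.15 (SE) with its brightest probe set. A dimmer Eif2ak2 probe set gave 0.46 ± 0.10 (SE; limma adjusted p = 0.342), reading 25.1 and 20.4 in the controls and 27.1 to 37.4 in OVA mice. Another Eif2ak2 probe set, below the filter, read 7.87 and 6.75 in the controls and 8.66 to 11.8 in OVA mice. The direction for Eif2ak2 therefore depends on the probe set.

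Isg20, an exonuclease for single-stranded RNA, was the gene furthest on the higher side, and it read 57.2 and 53.6 in the controls. Its OVA arrays ran from 50.9 through 79.4 to 86.0, with 5 of 6 above both controls and female OVA 2 below them. The difference was 0.37 ± 0.16 (SE; limma adjusted p = 0.449). Isg20 is also expressed by antibody-secreting B cells. Bst2 (tetherin), which holds budding virus at the cell surface and is abundant on plasmacytoid dendritic cells and plasma cells, read 82.6 and 65.8 in the controls and 69.1 through 83.7 to 92.4 in OVA mice. The groups overlapped for Bst2, and the difference was 0.17 ± 0.11 (SE).

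The chemokines Cxcl9 and Cxcl10 recruit T cells through Cxcr3. Cxcl9 read 103 and 119 in the controls and 56.9 through 73.1 to 123 in OVA mice. In 5 of 6 OVA mice it was below both controls, and in female OVA 12 it was above both. The difference was -0.50 ± 0.24 (SE; limma adjusted p = 0.477). Cxcl10 read 28.8 and 34.2 in the controls and 17.9 through 31.3 to 41.2 in OVA mice, and its difference was -0.03 ± 0.22 (SE).

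All 6 remaining genes were on the lower side, with a median of -0.21, where 46.3% of all tested genes were lower. Among these 6, Slfn4 was kept by the filter through its controls and so had to be lower. Parp9 forms a complex with Dtx3l that modifies histones and viral proteins. It read 388 in the female control and 439.5 in the male control, and 268 through 294 to 346 in OVA mice. Every OVA mouse was below both controls, and the difference was -0.47 ± 0.12 (SE; limma adjusted p = 0.375). Slfn4, a Schlafen family gene of myeloid cells, read 17.0 and 19.0 in the controls and 9.44 through 10.5 to 13.9 in OVA mice, again all below. The difference was -0.52 ± 0.12 (SE; limma adjusted p = 0.352). Its OVA levels lay around the filter of 11.9, so Slfn4 was kept through its controls.

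Parp14, a relative of Parp9 that lies near it on chromosome 16, gave -0.18 ± 0.11 (SE), with controls at 269 and 314 and OVA arrays from 232 to 281. Rtp4, a chaperone of G protein coupled receptors, read 384 and 323 in the controls and 233 through 316 to 378 in OVA mice, a difference of -0.22 ± 0.22 (SE). Xaf1, a partner of the apoptosis inhibitor XIAP, gave -0.04 ± 0.16 (SE). Ifi47, which belongs with the GTPases, read 624 and 661 in the controls and 463 through 535 to 684 in OVA mice. Its difference of -0.21 ± 0.14 (SE) was smaller than those of the GTPases Gbp6, Irgm2 and Igtp. It lay within the range of the 9 GTPases listed separately, which was -0.80 to -0.06.

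Within the OVA group the levels of the antiviral genes were spread out, and part of the genes shared an order. The median SD over the 6 OVA arrays was 0.24 for these genes and 0.17 for all tested genes, on the log2 scale. Rsad2 spanned a 3.41-fold range over the OVA mice, Ifit3 2.79-fold, Ifit1 2.43-fold and Oasl2 2.28-fold, while Parp14 spanned 1.21-fold. Female OVA 12 and male OVA 8 were the lowest pair of OVA arrays in 14 of the 32 genes (43.8%), against 13.5% of all tested genes. Female OVA 2 and male OVA 5 were the highest pair in 10 genes (31.2%), against 2.07%. Both held in 9 of the 32 genes, Cmpk2, Ifit1, Ifit3, Oas1a, Oas2, Oasl1, Rsad2, Rtp4 and Usp18. Over all tested genes both held in 108 of 11988. These pairs were noticed in the data and are given as a description without a test.

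The order was not shared by every gene. Female OVA 12 was the lowest of all 8 arrays for 12 genes, among them Ifit1, Ifit3, Rsad2, Oas1a, Oasl1 and Oasl2, yet it was the highest for Bst2, Cxcl9, Cxcl10 and Ifi47. Female OVA 2 was the highest for 7 genes, among them Ifit1, Ifit3, Oasl1 and Rsad2, and the lowest for Cxcl9 and Isg20. Female control 7 was the highest for 9 genes, including the sensors Zbp1, Ddx60, Ifih1 and Dhx58, and the lowest for none. Zbp1 and Parp9 did not follow the order of the effectors: male OVA 5, high for Ifit1, was the lowest array for Zbp1.

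**Figure D3:**
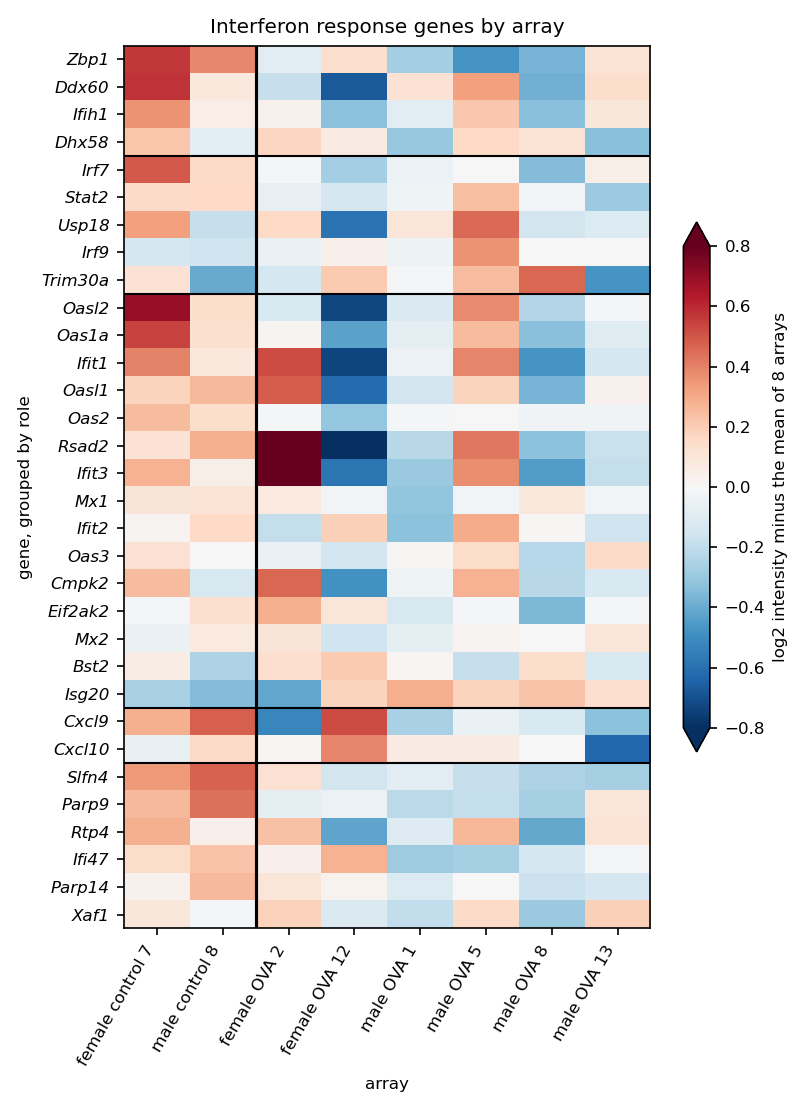
Log2 intensity of each interferon response gene (rows, grouped by role) in each array (columns), as the difference from that gene's mean over 8 arrays; red is higher, blue lower, and values beyond 0.8 take the end colours. Female OVA 2 is red and female OVA 12 is blue for Ifit1, Ifit3, Rsad2 and Oasl1, while Cxcl9 shows the opposite.

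The mean log2 intensity over the 32 genes was 6.82 in the female and 6.70 in the male control. It was 6.70 and 6.44 in female OVA 2 and 12, and 6.51, 6.73, 6.44 and 6.53 in male OVA 1, 5, 8 and 13. The OVA mice thus reached the level of the male control in male OVA 5 and nearly so in female OVA 2. Marker genes of B cells moved across the same arrays. The mean over 11 B cell markers, as a difference from its mean over 8 arrays, was -0.38 in the female and -0.41 in the male control. It reached 0.63 in female OVA 12 and 0.64 in male OVA 8, while the remaining OVA arrays had -0.29 to 0.05. All 11 B cell markers were higher in OVA mice (median 0.58), and their summed intensity was 3415 to 3801 in controls and 3625 to 7459 in OVA mice. Every OVA array thus had a higher B cell score than both controls, so a fit with this score cannot fully separate it from treatment. In a whole tissue sample, fewer cells of a type and less RNA per cell cannot be told apart.

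All 10 epithelial markers were lower in OVA mice (median -0.25), with summed intensities of 19799.7 to 21143 in controls and 13232 to 20709.7 in OVA mice. Of 13 enterocyte markers 12 were lower (median -0.20), with sums of 41421 to 47418 in controls and 31872 to 47837 in OVA mice. All 8 smooth muscle markers were lower (median -0.22), with sums of 4338 to 4855 in controls and 2558 to 4808 in OVA mice. With the B cell score as a further covariate, 17 of the 32 antiviral genes were below 0 in place of 28, where 50.9% of all tested genes were below 0, and Ifit1, Ifit3, Rsad2, Oasl1, Oas3 and Ifih1 were among those that changed sign. Without female OVA 12 and male OVA 8, the arrays of highest B cell score, 19 of the 32 were below 0 with a median of -0.09, and 48.7% of all tested genes were below 0. There 5 genes were lower at an unadjusted p under 0.05, against 3.8% of all genes, and 8 had all OVA arrays below both controls, against 7.29%. RNA quality controls moved as well: the ratio of the 3' to the 5' actin probe sets was 1.43 and 1.54 in the controls, 1.29 to 1.37 in 5 OVA arrays and 1.58 in male OVA 8. The same ratio for Gapdh was 0.896 and 1.00 in the controls, 0.834 to 0.891 in those 5 arrays and 0.960 in male OVA 8. Its part in the difference was not tested. Beyond these values, the part of tissue makeup in the difference was not tested.

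**Figure D4:**
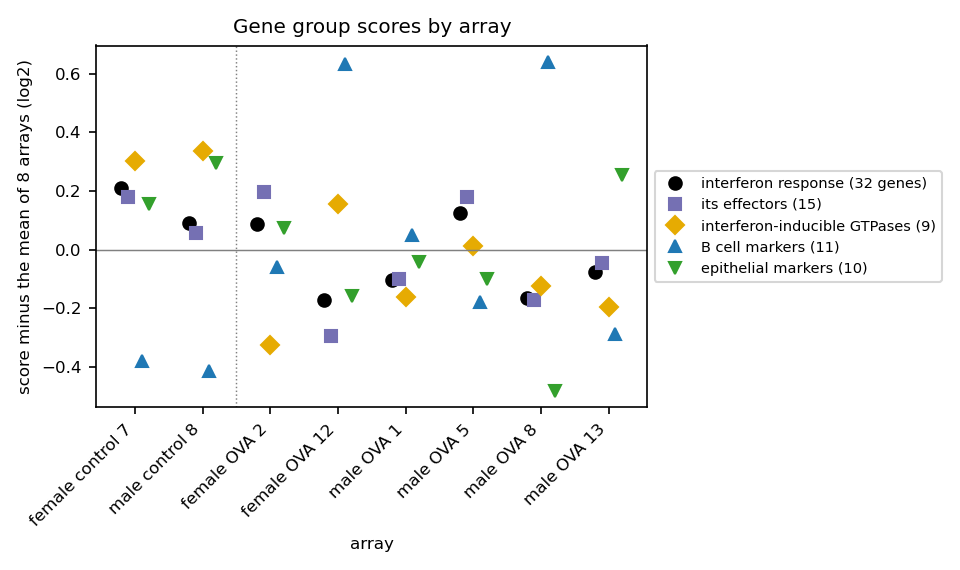
Mean log2 intensity of 5 gene groups in each array (x axis), as the difference from the group's mean over 8 arrays (y axis); symbols are offset sideways and the dotted line separates controls from OVA mice. Female OVA 12 and male OVA 8 have the highest B cell score (0.63 and 0.64) and the lowest interferon response score.

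Other cells that carry interferon genes were measured too. Of 7 plasmacytoid dendritic cell markers, 2 were lower and 5 higher in OVA mice (median 0.03), and Siglech, a defining marker, read 28.0 and 30.7 in controls and 24.2 to 36.6 in OVA mice. Of 11 macrophage and monocyte markers, 5 were lower (median 0.09). Of 7 markers of cytotoxic and natural killer cells, 6 were lower (median -0.22), with summed intensities of 2443 to 2752 in controls and 1289 to 2778 in OVA mice. Of 7 neutrophil markers with a probe set, 2 passed the filter, and the defining S100a8 and S100a9 did not. All 9 T cell markers were higher (median 0.27). The parts of these cells in the antiviral genes' levels were not tested.

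Other genes of the pathway were read from separate lists, and their counts stand against the same background, in which 46.3% of all tested genes were lower and 3.82% were lower at an unadjusted p under 0.05. None of 9 interferon genes with a probe set passed the intensity filter, and the interferon beta gene Ifnb1, singled out after its values were seen, read 7.63 and 5.20 in controls and 4.75 to 6.13 in OVA mice. The 6 interferon receptor genes were all tested, 4 lower and 2 higher, none at an unadjusted p under 0.05. Ifnar2, Il10rb and Ifngr2 had the smallest p of these, with differences of 0.21 ± 0.13, -0.19 ± 0.15 and -0.13 ± 0.19 (SE). Of 13 signalling genes 4 were lower and 9 higher. Irf1, a factor induced by both interferon types, was lower by the most: it read 602 and 778 in controls and 411 to 576 in OVA mice, all below both controls, at -0.46 ± 0.15 (SE; limma adjusted p = 0.409). The feedback inhibitors Socs3 and Socs1 were at 0.22 ± 0.13 and 0.30 ± 0.18 (SE).

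Among 14 tested genes of nucleic acid sensing, 8 were lower and 6 higher, and 4 were lower at an unadjusted p under 0.05. Tlr3, the endosomal receptor for double-stranded RNA, was at -0.43 ± 0.16 (SE), the cytosolic sensor Ddx58 (RIG-I) at -0.29 ± 0.10 (SE) and the kinase Ikbke at -0.35 ± 0.13 (SE). Of 31 further interferon-stimulated genes 17 were lower and 14 higher, with a median of -0.08, and 3 had an unadjusted p under 0.05. These were Parp12, an antiviral ADP-ribosyltransferase, at -0.58 ± 0.20 (SE), the RNA helicase Mov10 at -0.44 ± 0.15 (SE) and the peptide transporter Tap1 at -0.33 ± 0.13 (SE). All 9 interferon-inducible GTPases, which attack the vacuoles of intracellular microbes, were lower (median -0.39), and 5 of them had an unadjusted p under 0.05. Gbp6 was at -0.80 ± 0.18, Irgm2 at -0.62 ± 0.15 and Igtp at -0.62 ± 0.17 (SE). With limma no gene of these lists passed after adjustment (smallest adjusted p = 0.352).

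The GTPases and the antiviral effectors differed in the females that received OVA. As a difference from the mean over 8 arrays, the mean of the GTPases was highest in the controls (0.30 and 0.34), lowest in female OVA 2 (-0.32) and above the mean in female OVA 12 (0.15). The 15 effectors had the reverse order in that pair of females, at 0.20 and -0.30. In other arrays the groups were alike: both controls were above the mean for the effectors too (0.18 and 0.06), and male OVA 5 was the highest male OVA array for both (0.01 for the GTPases and 0.18 for the effectors). The difference between the groups was not tested.

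Within each sex, where no array is shared, 20 of the 32 genes were lower in OVA mice in females and in males (62.5%), against 25.1% of all tested genes. Higher in both sexes were 3 genes, Bst2, Irf9 and Isg20, against 32.5% of all tested genes. The median difference was -0.23 in females and -0.17 in males. Oasl2 was at -1.12 in females and -0.14 in males, Ddx60 at -1.01 and -0.03, and Oas1a at -0.74 and -0.19, while Slfn4 was at -0.35 in females and -0.67 in males and Parp9 at -0.32 and -0.58. Usp18 was at -0.54 in females and 0.26 in males. Each sex has 1 control, so these values rest on a single saline mouse.

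Whether the OVA effect differed by sex was itself tested, and none of the 32 genes had an unadjusted p under 0.05, in either direction, where 4.18% of all genes were below 0 and 2.91% above 0 at that p. After adjustment by limma with Benjamini-Hochberg 0 of 32 passed, as did 0% of all genes. Oasl2 came nearest, with a difference between the effects of 0.99 ± 0.42 (SE; limma adjusted p = 0.608). Ddx60 was close to it, at 0.98 ± 0.42 (SE; limma adjusted p = 0.612). Between females and males across treatments, Bst2 was 0.24 ± 0.10 (SE) higher in females (limma adjusted p = 0.901). It was the only one of the 32 past an unadjusted p of 0.05, against 1.16% of all genes higher and 4.16% lower, and after adjustment 0 of 32 passed, against 0.0417% of all genes.

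**Figure D5:**
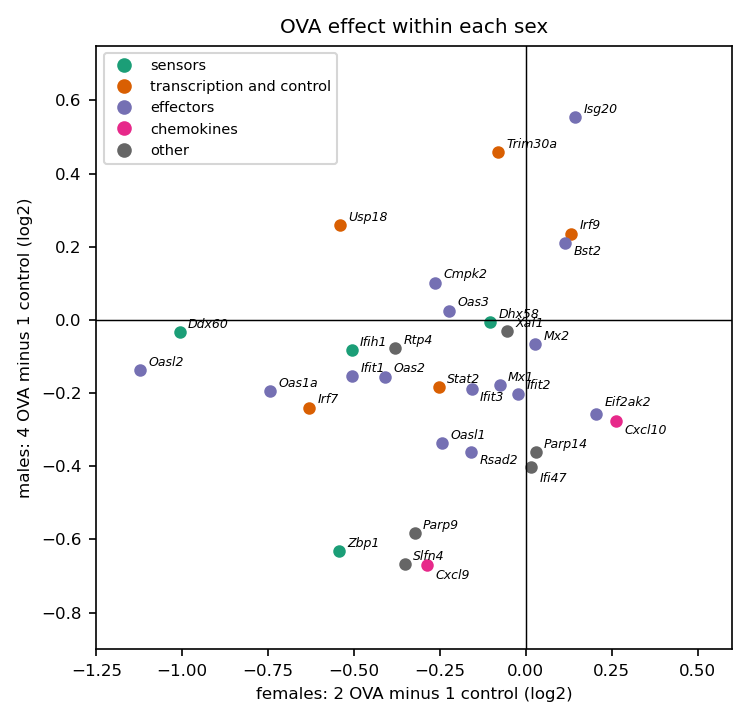
OVA minus control on the log2 scale in females (x axis, 2 OVA against 1 control) and males (y axis, 4 OVA against 1 control) for the 32 genes, coloured by role. The lower left part holds 20 genes, and Oasl2 and Ddx60 lie furthest left, at -1.12 and -1.01.

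The levels of Irf7 were set against those of each other gene over the 8 arrays, which made 31 relations. Pearson's r was above 0 in 25 of them (80.6%), with a median of 0.53, against 43.5% and a median of -0.15 over the 11987 tested genes besides Irf7. An r of at least 0.9 was found for 2 of the 31 (6.45%) and for 0.325% of all genes. The closest were Oas1a (r = 0.92, exact permutation p = 0.00246, adjusted p = 0.0384; rho = 0.79, exact permutation p = 0.0279, adjusted p = 0.163) and Ifih1 (r = 0.91, exact permutation p = 0.00248, adjusted p = 0.0384; rho = 0.90, exact permutation p = 0.00456, adjusted p = 0.112). Both passed by r and neither by rho after Benjamini-Hochberg adjustment. Without female control 7 and male OVA 8, the arrays furthest from the median of Irf7, r was 0.79 for Oas1a and 0.80 for Ifih1.

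Among the 6 OVA arrays alone, r was 0.81 for Oas1a and 0.93 for Ifih1. After adjustment 0 of 31 relations passed (exact permutation, smallest adjusted p = 0.151). An unadjusted p under 0.05 was found for 5 by exact permutation. This share was not worked out over all genes, so no reading is drawn from the count. An r of at least 0.9 in the OVA arrays was found for 3 of the 31 (9.68%) and for 3.9% of all genes. In those arrays r was above 0 in 21 of the 31, against 44.8% of all genes. Ddx60 (r = 0.86), Oasl2 (0.85), Oas2 (0.82) and Rtp4 (0.79) followed over all 8 arrays. Bst2, Isg20, Trim30a and Irf9 had negative r with Irf7, from -0.60 for Isg20 to -0.34 for Irf9, and so did Cxcl10 (-0.28) and Ifit2 (-0.02). These relations include the difference between control and OVA arrays as well as the spread within them.

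Across the 8 arrays the trimmed mean intensity was 64.7 to 67.8. The labels name Peyer's patches as the tissue, but their text on RNA extraction names human cortex: of 9 neuron and glia markers with a probe set 2 passed the filter, against 11 of 11 B cell markers. Probes for close copies (Oas1a and Oas1g, Ifit3 and its duplicate, Slfn4 and Slfn3, Trim30a and Trim30d) may read both, so these genes' values are uncertain.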

How the data were processed

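Total RNA of 8 Peyer's patch samples was read on single-colour Affymetrix arrays with 45101 probe sets. The authors deposited 1 intensity for each probe set and array, already normalized and linear. MAS5 is the tool named per the submitters' processing notes, and its version and scaling target were not given in the sources used here. Since 51.5% of probe sets had the same value on 2 or more arrays, how probes were summarised was not settled, and small differences may be blurred. The number of arrays limits the precision.

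The log2 scale used here is log2(value + 4.88), the offset being the 25th percentile, and arrays were not rescaled. Leaving out 64 control probe sets, those above the median mean log2 value (intensity 11.9) were tested, 22518 in all. A gene was read from the brightest of its probe sets that the annotation gives to it alone. One additive model of treatment and sex, fitted with lmFit and eBayes of limma 3.58.1 (R 4.3.3), gave OVA against control and females against males. A model of 4 group means gave the sex difference in the OVA effect, and takes the spread of a lone control from the other arrays. Tests were two-sided, adjusted by Benjamini-Hochberg over all probe sets tested, and checked on simulated data. Irf7 relations used exact permutation over pairings (NumPy 2.4.6), adjusted over 31. A score is the mean log2 intensity of a list.

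Every listed gene is named, and in each other pathway list up to 3 tested genes of smallest p. The genes and lists were chosen with earlier results of these data known. Alternatives were the pseudocount, scaling, filter, variance model, array weights, covariates, each sex alone, averaging a gene's probe sets, leaving out 1 array and, added after the data were seen, leaving out female OVA 12 and male OVA 8 together. Motifs were searched in RefSeq promoter sequences of GRCm38.p6.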

Additional observations from a re-analysis of the deposited data

Results flagged for a closer look

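In the 4 male OVA mice, Cxcl10 in male OVA 13 lay apart from the rest, at an intensity of 17.9 against 30.4 to 31.9 in the others. On the offset log2 scale the gap was 0.91 of the group's whole range, above Dixon's critical value for a group of 4. Irf9 in male OVA 5 lay apart on the higher side, at an intensity of 135 against 101 to 103. Its gap was 0.912 of the range on the offset log2 scale. With 32 genes tested in this group, chance flags about 1 in 20 groups, or 1.6 genes, so 2 such genes are near that number. The Cxcl10 difference between OVA and control was 0.07 without male OVA 13, in place of -0.03, and the Irf9 difference was 0.14 without male OVA 5, in place of 0.19.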

How the results depend on the processing

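Over 49 genes and every alternative run, 1028 of 1101 log2 differences between OVA and control kept their sign, and 73 in 20 genes did not. The cause of each change below was not tested. In each of these alternatives limma with Benjamini-Hochberg adjustment passed 0 of the 32 antiviral genes, while 6 of them had an unadjusted p under 0.05 in the reported comparison. Slfn4 and Mx2 lay near the intensity filter of 11.9, where low signal over background limits their values, and 2 controls carry every comparison with OVA.

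With the B cell score, which was higher in every OVA array than in both controls, as a covariate the number of antiviral genes below 0 was 17. There Usp18 was at 0.24, Rtp4 0.21, Mx2 0.066, Eif2ak2 0.13, Oasl1 0.18, Oas3 0.11, Ifih1 0.038, Rsad2 0.32, Xaf1 0.24, Ifit3 0.38, Cmpk2 0.31, Ifit1 0.25, Trim30a -0.12, Il10rb 0.021 and Ifngr2 0.14. With the epithelial score as a covariate Rtp4 was at 0.022, Mx2 0.041, Eif2ak2 0.13, Oas3 0.043, Xaf1 0.15, Ifit3 0.070, Cmpk2 0.056, Trim30a -0.19 and Ifngr2 0.18. With array weights Usp18 was at 0.0022, Mx2 0.0008, Eif2ak2 0.010, Ifit3 0.025 and Cmpk2 0.076. Without female OVA 12 and male OVA 8, an alternative chosen after the data were seen, Usp18 was at 0.13, Rtp4 0.0081, Mx2 0.025, Eif2ak2 0.013, Rsad2 0.11, Xaf1 0.072, Ifit3 0.16, Cmpk2 0.18 and Ifit1 0.038. In females alone Ifi47 was at 0.015, Cxcl10 0.26, Mx2 0.026, Eif2ak2 0.21, Parp14 0.028, Trim30a -0.080 and Ifnar2 -0.030. In males alone Usp18 was at 0.26, Oas3 0.025, Cmpk2 0.10 and Il10rb 0.038. With the mean of a gene's probe sets Stat2 was at 0.0010, Eif2ak2 0.20 and Cmpk2 0.010.

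At an unadjusted p under 0.05, the lower genes in OVA mice numbered 3 with the filter at the 75th percentile, which tests fewer genes. Of all genes tested there, 3.97% were lower at that p. Higher genes numbered 1 with no covariate, against 6.17% of all tested genes. For the sex difference in the OVA effect, genes above 0 numbered 2 with array weights and 2 with median centring. Over all tested genes those shares were 4.5% and 3.87%. Genes below 0 numbered 1 with no filter, against 6.18% of all tested genes. For female against male, higher genes numbered 5 with array weights and 2 in the OVA arrays alone, against 4.04% and 3% of all tested genes. Lower genes numbered 1 with array weights, against 11.7% of all tested genes. Those weights also moved the counts over all genes, from 139 to 484 higher and from 499 to 1405 lower. Over all probe sets, 4 passed for female against male with the filter at the 75th percentile. In the OVA arrays alone 0 relations with Irf7 passed.

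Leaving out 1 array at a time, the number of genes higher at an unadjusted p under 0.05 ran from 0 to 1 for OVA against control. Over all tested genes that share ran from 3.43% to 7.97%. For the sex difference in the OVA effect the number ran from 0 to 3 above 0 and from 0 to 1 below 0. Over all tested genes those shares were 2.15% to 5.01% and 2.37% to 6.2%. For female against male the number ran from 0 to 2 higher and from 0 to 1 lower. Those shares over all tested genes were 0.517% to 3.9% and 1.76% to 7.3%. Differences between OVA and control ran from -0.26 to 0.14 for Cmpk2, -0.28 to 0.26 for Cxcl10, -0.26 to 0.21 for Eif2ak2, -0.40 to 0.015 for Ifi47, -0.45 to 0.092 for Ifit3, -0.030 to 0.41 for Ifnar2, -0.46 to 0.038 for Il10rb, -0.081 to 0.026 for Mx2, -0.22 to 0.025 for Oas3, -0.36 to 0.028 for Parp14, -0.61 to 0.047 for Rsad2, -0.080 to 0.46 for Trim30a, -0.54 to 0.26 for Usp18 and -0.10 to 0.019 for Xaf1. The sex difference in the OVA effect could not be fitted without either control. No paired analysis was possible because the groups compared share fewer than 2 replicate numbers: male control and male OVA share only the number 8.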
